A study of Mus musculus with 6 samples.

Results

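*Isl1*, *Gata3*, *Th*, *Dbh*, *Npy* and *Scg3* are 6 genes of noradrenergic cells, and all 6 were on an array table of 6951 transcript clusters (sets of probes that each read a gene). *Isl1* and *Gata3*, which encode lineage transcription factors, were lower in *Kap1* knockdown cells than in scrambled control cells. *Th* and *Dbh*, which encode enzymes of catecholamine synthesis, were higher in the knockdown. *Npy*, which encodes a secreted peptide, and *Scg3*, which encodes a secretory granule protein, were lower. The 6 genes were chosen by their roles in noradrenergic cells with the values of this same comparison known. Their levels and differences are therefore a description, and no test is given for them. They are neither all factors nor all enzymes, so they are called here the noradrenergic genes.

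The samples were cultures of N2A, a mouse neuroblastoma cell line, transfected with the shA *Kap1* shRNA plasmid (3 arrays) or with a scrambled control (3 arrays). Every culture received 1.5 µg of shRNA plasmid and 300 ng of pTK-Hyg, a hygromycin resistance plasmid. After 3 days the cells were moved to hygromycin, and the pooled resistant cells were collected after 7 days of selection. From each sample 200 ng of RNA was labelled for a single-colour GeneChip Mouse Gene ST array. The sources describe triplicates without saying that they were separate transfections, so the p-values below measure the spread among these arrays, which may be technical only. With so few arrays the precision is limited. The values are of whole cultures, in which fewer cells of a type and less RNA per cell cannot be told apart.

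KAP1, also named TRIM28, is a chromatin co-repressor that zinc finger proteins bring to DNA. Sympathoadrenal cells arise from the neural crest under a set of transcription factors that includes GATA, HAND and ISL1 proteins, and give rise to sympathetic neurons and to chromaffin cells. Their transmitter is made in steps. Tyrosine hydroxylase (TH) makes L-DOPA from tyrosine, DDC makes dopamine, and dopamine beta-hydroxylase (DBH) makes noradrenaline inside vesicles, which also hold peptides such as NPY and proteins of the granin family.

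The hairpin of the knockdown plasmid is shown because it is the labelled difference between the groups. Capitals mark the arms, which are complementary to each other, and the lower case bases between them form the loop. The oligonucleotide has 52 bases, with arms of 17 bases and 11 bases between them.
Kap1shA forward oligonucleotide: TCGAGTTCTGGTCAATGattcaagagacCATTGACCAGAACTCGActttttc
Its target is *Trim28*, the gene of KAP1. *Trim28* (transcript cluster 10550076, chromosome 7) had intensities of 866, 861 and 936 in the *Kap1* knockdown, against 3377, 3443 and 3267 in the scrambled control. The knockdown mean was 26.4% of the control mean, and the 3 arrays labelled as knockdown were below the 3 control arrays.

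The 250 bases before the start of 4 of the genes are shown because these are the lineage factors and the enzymes, whose directions differed. They come from RefSeq on GRCm38.p6 and are written 5′ to 3′ on the strand of the gene. Capitals mark TGACG (the core of the cyclic AMP response element), TAAT (the core bound by many homeodomain proteins), GGGCGG (a GC-rich box bound by SP proteins) and GATAA (bound by zinc finger proteins such as GATA3), each on either strand. The *Th* window lies at chr7:142899996-142900245 on the minus strand, that of *Dbh* at chr2:27165257-27165506 on the plus strand, that of *Isl1* at chr13:116309689-116309938 on the minus strand and that of *Gata3* at chr2:9878601-9878850 on the minus strand.
Th: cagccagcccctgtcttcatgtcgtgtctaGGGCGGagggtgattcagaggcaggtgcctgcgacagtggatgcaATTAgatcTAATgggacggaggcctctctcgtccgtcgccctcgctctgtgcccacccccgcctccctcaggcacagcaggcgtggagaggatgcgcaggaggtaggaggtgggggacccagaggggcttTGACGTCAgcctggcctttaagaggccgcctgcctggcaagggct
Dbh: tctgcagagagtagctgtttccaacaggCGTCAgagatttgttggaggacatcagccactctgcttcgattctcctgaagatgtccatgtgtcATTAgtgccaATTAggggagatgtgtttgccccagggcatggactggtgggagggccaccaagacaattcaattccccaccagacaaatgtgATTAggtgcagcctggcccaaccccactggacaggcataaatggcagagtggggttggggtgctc
Isl1: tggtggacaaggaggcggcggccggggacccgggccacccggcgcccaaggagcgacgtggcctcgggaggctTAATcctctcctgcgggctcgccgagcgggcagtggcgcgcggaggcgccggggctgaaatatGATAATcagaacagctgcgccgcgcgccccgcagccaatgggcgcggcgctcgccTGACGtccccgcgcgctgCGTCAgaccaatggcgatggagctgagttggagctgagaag
Gata3: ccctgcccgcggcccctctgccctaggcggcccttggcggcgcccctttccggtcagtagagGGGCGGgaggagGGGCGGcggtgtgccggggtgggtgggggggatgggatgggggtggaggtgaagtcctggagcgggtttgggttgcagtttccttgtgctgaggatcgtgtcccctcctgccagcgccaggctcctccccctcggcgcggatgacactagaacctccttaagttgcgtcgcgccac
The *Th* window holds the palindrome TGACGTCA, the full cyclic AMP response element, beginning 45 bases before the start. The other 5 noradrenergic genes did not have these letters in their windows. TGACGTCA was present in 1.55% of all 32851 RefSeq promoter windows of this length and in 2.68% of the 5476 windows of genes on the table. The shorter TGACG, which overlaps TGACGTCA, was present in 4 of the 6 windows (*Dbh*, *Isl1*, *Scg3* and *Th*), against 25.9% of the table's windows. TAAT was present in the same 4 windows, against 39.8% of the table's windows.

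GATAA was in the *Isl1* window and in none of the other 5, against 14.7% of the table's windows. GGGCGG was in the windows of *Gata3*, *Npy* and *Th*, against 58.1% of the table's windows. CANNTG (the E-box) was in those of *Dbh*, *Isl1* and *Th*, against 57.8%, and TGANTCA (an AP-1 motif) in that of *Th*, against 4.2%. TATAAA was in none of the 6, against 6.17% of the table's windows. The windows of *Isl1* and *Gata3* had a GC content of 71.2% and 70.0%, those of *Th* and *Npy* 64.4% and 69.2%, and those of *Dbh* and *Scg3* 53.2% and 55.6%, where the median over the table's windows was 60.0%. The *Dbh* window had 2 CpG dinucleotides. These matches are letters in a window, and no binding was measured here.

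*Isl1* encodes a LIM homeodomain factor of sympathetic and other peripheral neurons. *Isl1* (transcript cluster 10412335, chromosome 13) had intensities of 173, 173 and 172 in the *Kap1* knockdown, against 650, 610 and 580 in the scrambled control. The knockdown arrays were nearly equal and all lay far below the control arrays. The means were 172.7 ± 0.577 in the knockdown and 613.3 ± 35.1 in the control (SD, n = 3 each), a log2 difference of −1.83, so that the knockdown level was 28.2% of the control level. Over the 9 pairs of a knockdown with a control array, the log2 difference lay between −1.92 and −1.75. *Isl1* ranked 40 among the 3383 transcript clusters of the table that were lower in the knockdown, the highest rank among the 6 genes.

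*Gata3* encodes a zinc finger factor needed for the noradrenergic lineage. *Gata3* (transcript cluster 10479981, chromosome 2) had intensities of 182, 211 and 230 in the knockdown, against 523, 523 and 485 in the control. Its knockdown arrays were spread more widely than those of *Isl1*, and the groups did not overlap. The means were 207.7 ± 24.2 in the knockdown and 510.3 ± 21.9 in the control (SD, n = 3 each), a log2 difference of −1.30 with a range of −1.52 to −1.08 over the 9 array pairs. *Gata3* ranked 183 among the 3383 lower transcript clusters.

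*Th*, the gene of the rate-limiting enzyme of the pathway, went the other way. *Th* (transcript cluster 10569370, chromosome 7) had intensities of 420, 431 and 427 in the knockdown, against 195, 184 and 196 in the control. Every knockdown array was above every control array, and each group lay in a narrow band. The means were 426.0 ± 5.57 in the knockdown and 191.7 ± 6.66 in the control (SD, n = 3 each), a 2.22-fold higher level and a log2 difference of 1.15. The difference lay between 1.10 and 1.23 over the 9 array pairs, and *Th* ranked 91 among the 3568 transcript clusters that were higher in the knockdown.

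*Dbh* encodes the vesicle enzyme that turns dopamine into noradrenaline. *Dbh* (transcript cluster 10470412, chromosome 2) had intensities of 195, 203 and 202 in the knockdown, against 119, 123 and 136 in the control. The knockdown arrays were again the higher ones, by a smaller margin than for *Th*. The means were 200.0 ± 4.36 in the knockdown and 126.0 ± 8.89 in the control (SD, n = 3 each), a 1.59-fold higher level and a log2 difference of 0.67. The difference lay between 0.52 and 0.77 over the 9 array pairs, and *Dbh* ranked 468 among the 3568 higher transcript clusters. These signals were dim. The control mean exceeded that of only 11.49% of the table's transcript clusters, and the knockdown mean that of 21.45%. Signal over background was not analysed, so the values do not show how far *Dbh* was expressed.

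*Npy* encodes neuropeptide Y, which sympathetic neurons release together with noradrenaline. *Npy* (transcript cluster 10538247, chromosome 6) had intensities of 131, 123 and 157 in the knockdown, against 245, 245 and 245 in the control. The groups did not overlap, and the 3 control arrays had the same value in the unrounded table too, so their SD of 0 is no measure of precision. The knockdown mean was 137.0 ± 17.8 (SD, n = 3), 55.6% of the control level, and the log2 difference was −0.85. It lay between −0.99 and −0.64 over the 9 array pairs. The *Npy* signal was also dim, with a knockdown mean above that of only 13.51% of the table's transcript clusters and a control mean above 25.84%.

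*Scg3* encodes secretogranin III, a granin that helps to sort chromogranin A into secretory granules. *Scg3* (transcript cluster 10595033, chromosome 9) had intensities of 2320, 2256 and 2217 in the knockdown, against 4057, 3980 and 3751 in the control. All knockdown arrays were below all control arrays. The means were 2264 ± 52.0 in the knockdown and 3929 ± 159 in the control (SD, n = 3 each), a level of 57.7% of the control and a log2 difference of −0.79. *Npy* and *Scg3* ranked 469 and 528 among the 3383 lower transcript clusters, and their ranges over array pairs overlapped (−0.87 to −0.69 for *Scg3*).

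**Figure D1:**
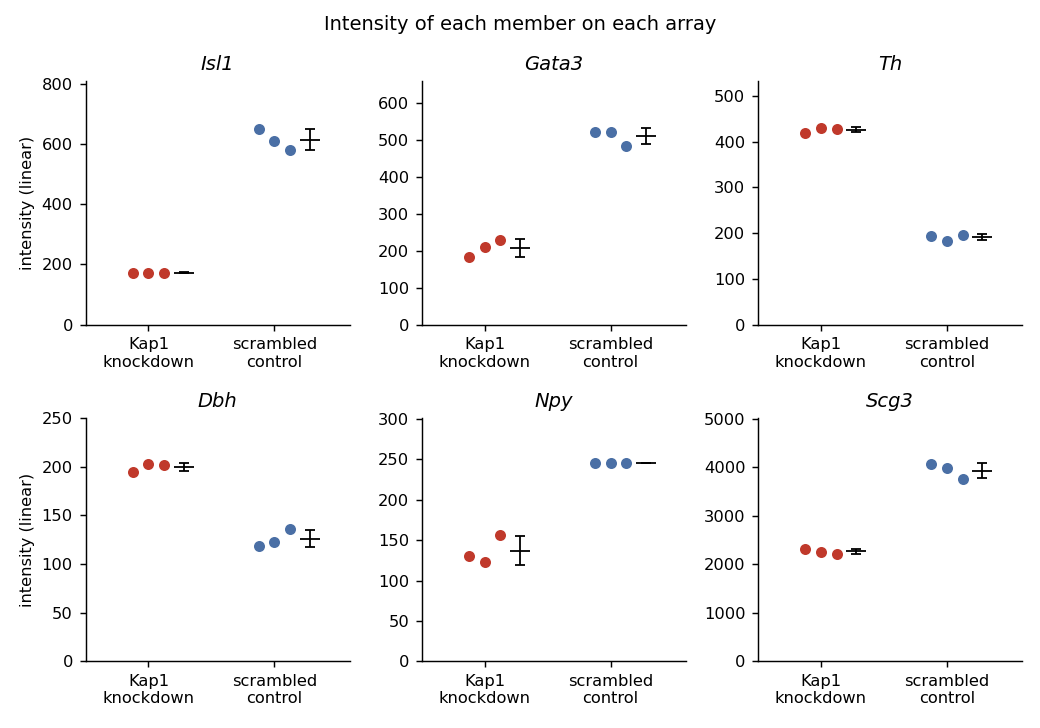
Linear intensity (vertical axes, each starting at 0) of the 6 noradrenergic genes on each array, with *Kap1* knockdown (red) left of scrambled control (blue); points are arrays and the bars beside them give mean and SD (n = 3). *Th* and *Dbh* are higher on every knockdown array than on every control array, while *Isl1*, *Gata3*, *Npy* and *Scg3* are lower, and the 3 *Npy* control points coincide at 245. The groups are separate in this way for 100% of the table's transcript clusters.

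The log2 intensities were compared with limma and adjusted by Benjamini-Hochberg over the 6951 transcript clusters. The words changed, risen and fallen are kept for those that had both a fold of 1.4 or more and an adjusted p of 0.05 or less. All 6951 met the adjusted p, the largest being 0.0365 in limma, and the smallest absolute log2 difference was 0.12. The table is thus already a selection on this comparison, and a gene outside it has no value here. The median intensity per array was 507 to 528 in the knockdown and 505 to 553 in the control. The median log2 difference over the table was 0.17, near the edge of the gap around 0, with 3568 transcript clusters higher and 3383 lower.

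*Th* and *Dbh*, 2 of the 6 noradrenergic genes, lay beyond the fold of 1.4 as higher in the knockdown, and 15.0% of the table (1043 transcript clusters) had risen. *Isl1*, *Gata3*, *Npy* and *Scg3*, 4 of the 6, lay beyond it as lower, and 17.6% of the table (1225) had fallen. In either direction all 6 lay beyond the fold, and 32.6% of the table had changed. Which direction held more transcript clusters depended on the scaling and on control array 1, with 1217 higher and 1123 lower after median centring, 1207 and 1135 after quantile normalization, and 1202 and 1099 without control array 1. The groups did not overlap for any of the 6, and this held for 100% of the table. Because the genes were chosen on this contrast, nothing is read from these shares. In the plot of the table's differences the 4 lower genes stand at −1.83, −1.30, −0.85 and −0.79 and the 2 higher genes at 0.67 and 1.15.

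**Figure D2:**
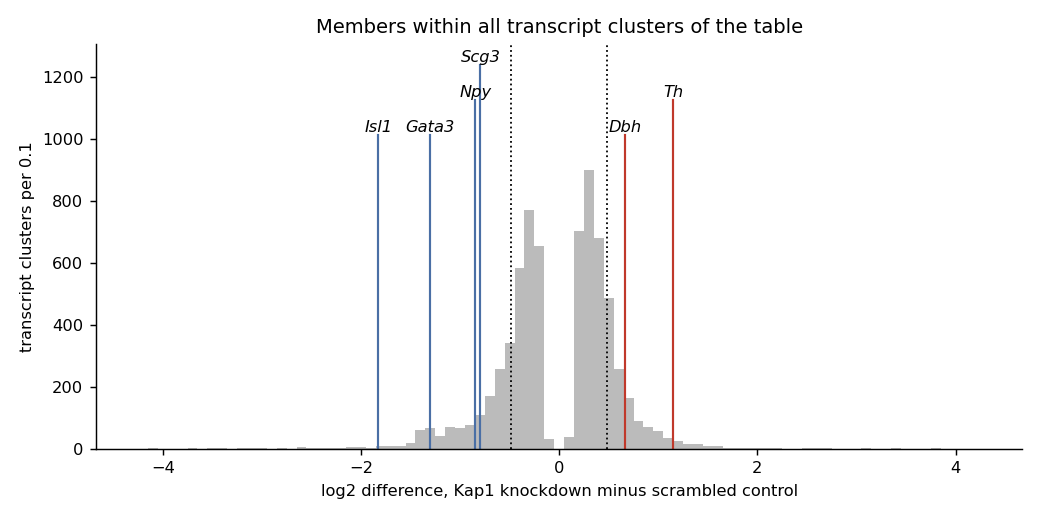
Number of transcript clusters (vertical axis, per bin of 0.1) at each log2 difference of *Kap1* knockdown minus scrambled control (horizontal axis) over the 6951 transcript clusters, with lines for the 6 noradrenergic genes (red higher, blue lower) and dotted lines at a fold of 1.4. The bars leave a gap around 0, since no listed transcript cluster differs by less than 0.12, and all 6 lines lie outside the dotted lines.

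Lists of further genes with roles near those of the 6 were then counted, with the 6 left out. Of 242 genes on 12 lists, 66 were on the table and 32 of these (48.5%) had changed, 12 of them upwards and 20 downwards, where 32.3% of the table's 5322 named genes had changed. The median log2 difference of the 66 was −0.24, and over all named genes it was 0.15. Since 50.3% of named genes were higher and none lay within 0.12 of 0, that 0.15 sits near the edge of this gap. It is no sign of an upward shift of the table. The shares describe lists chosen with earlier results known and are no test of the lists. The adjusted p of each of the 32 was at most 7.79e-04 in limma, and that of each of the 66 at most 0.015. The adjustment ran over a table already selected on this comparison. The adjusted p-values here and below are thus no false discovery rates over the whole array and add no separate support.

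Among other sympathoadrenal transcription factors, 9 of 22 were on the table, 2 had risen and 4 had fallen, with a median log2 difference of −0.42. The changed share was 66.7% of the 9, against 32.3% of the table's named genes. *Phox2a*, a homeodomain factor that acts on the *Dbh* promoter, had intensities of 698, 729 and 883 in the knockdown, against 1668, 1478 and 1433 in the control. It fell by 0.99 on the log2 scale (SE 0.093, adjusted p = 1.20e-05 in limma). *Mycn*, the oncogene of neuroblastoma, averaged 286.7 ± 19.9 in the knockdown and 677.7 ± 30.6 in the control (SD, n = 3 each), a log2 difference of −1.24. *Tbx2*, which encodes a T-box factor, averaged 225.3 ± 24.6 in the knockdown and 499.3 ± 12.7 in the control, a log2 difference of −1.15. *Satb1*, which encodes a chromatin organiser, had a log2 difference of −0.65.

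*Insm1*, which encodes a zinc finger factor of chromaffin and other endocrine cells, rose, with 1005 ± 47.3 in the knockdown and 563.3 ± 22.2 in the control and a log2 difference of 0.84. *Gata2*, the relative of *Gata3*, averaged 3157 ± 222 in the knockdown and 2236 ± 56.9 in the control (SD, n = 3 each). Its log2 difference of 0.50 passed the fold narrowly, and was 0.47 without control array 2 and 0.44 without knockdown array 3, both under the fold of 1.4 (0.49 on the log2 scale). *Gata3* and *Gata2* thus lay on opposite sides of 0. *Hand2*, *Eya1* and *Sox4* had log2 differences of 0.19, 0.43 and −0.42, under the fold.

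Of the other genes of catecholamine synthesis, cofactor supply, storage and breakdown, 8 of 24 were on the table, 3 had risen and 1 had fallen, with a median log2 difference of 0.36. *Gch1*, the gene of the enzyme that begins the synthesis of tetrahydrobiopterin (the cofactor of TH), had intensities of 1650, 1606 and 1561 in the knockdown, against 705, 750 and 654 in the control. It rose by 1.19 on the log2 scale (SE 0.061, adjusted p = 2.37e-07 in limma), beside 1.15 for *Th*. *Qdpr*, the gene of the reductase that regenerates the same cofactor, rose by 0.76 on the log2 scale, with 1394 ± 82.9 in the knockdown and 820.7 ± 20.2 in the control (SD, n = 3 each). *Cyb561* encodes the vesicle cytochrome that carries electrons for the ascorbate used by DBH. It averaged 489.3 ± 15.0 in the knockdown and 254.0 ± 22.6 in the control, a log2 difference of 0.95.

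*Ddc*, the gene of the enzyme between TH and DBH, averaged 131.3 ± 6.81 in the knockdown and 98.3 ± 4.62 in the control (SD, n = 3 each), a log2 difference of 0.42 that did not pass the fold. *Gchfr*, which encodes a regulator of the GCH1 enzyme, and *Dnajc12*, which encodes a co-chaperone of aromatic amino acid hydroxylases, had log2 differences of 0.30 and 0.27, also under the fold. *Slc18a1*, the gene of a vesicular monoamine transporter, had a log2 difference of −0.32, under the fold. *Aldh2*, whose mitochondrial enzyme oxidises aldehydes left by monoamine breakdown, fell, with 263.7 ± 19.4 in the knockdown and 476.0 ± 46.0 in the control and a log2 difference of −0.85. *Pnmt*, *Slc18a2*, *Slc6a2* and *Maoa* were not analysed here.

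Of the other granins and dense-core vesicle proteins, 9 of 25 were on the table, 1 had risen, 1 had fallen and 7 did not pass the fold. The changed share of 22.2% lay below the 32.3% of the table's named genes. *Chga*, which encodes chromogranin A, the partner of SCG3, fell, with 4506 ± 118 in the knockdown and 6639 ± 132 in the control (SD, n = 3 each) and a log2 difference of −0.56. *Syt4*, which encodes a vesicle synaptotagmin, rose, with 1921 ± 123 in the knockdown and 1295 ± 65.8 in the control and a log2 difference of 0.57. *Chgb* and *Scg2*, which encode the other classical granins, had log2 differences of 0.36 and 0.42, under the fold. The sign thus differed among the granins, negative for *Scg3* and *Chga* and positive for *Chgb* and *Scg2*.

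Among other neuropeptides and their receptors only 2 of 37 were on the table. *Sstr2*, which encodes a somatostatin receptor, fell, with a log2 difference of −1.15, and *Adcyap1r1*, which encodes the PACAP receptor, had a log2 difference of −0.32. The 14 adrenergic and dopamine receptor genes of a further list and the receptors of NPY were not analysed here.

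Of the genes of cholinergic transmission, the alternative phenotype of sympathetic neurons and the receptors of their input, 4 of 13 were on the table and all 4 had changed. *Chrna3*, the nicotinic receptor subunit of ganglia, had intensities of 493, 529 and 547 in the knockdown, against 1182, 1250 and 1243 in the control. It fell by 1.23 on the log2 scale (SE 0.057, adjusted p = 1.13e-07 in limma). *Chrna7* and *Chrnb2*, which encode further nicotinic subunits, had log2 differences of −0.66 and −0.52, and *Chrnb2* was under the fold without knockdown array 1, at −0.46. *Ache*, the gene of acetylcholinesterase, rose, with a log2 difference of 0.57. *Chat* and *Slc18a3*, which define cholinergic neurons, were not analysed here.

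Of the receptors for survival and lineage signals of sympathetic neurons, 4 of 17 were on the table and all 4 had fallen, with a median log2 difference of −0.90. *Ret*, which encodes the receptor kinase for GDNF family ligands, had intensities of 3000, 3088 and 3159 in the knockdown, against 6983, 6691 and 6749 in the control, a log2 difference of −1.14. *Gfra1*, which encodes its GDNF-binding co-receptor, averaged 271.3 ± 12.0 in the knockdown and 431.3 ± 38.7 in the control (SD, n = 3 each), a log2 difference of −0.67. *Ngfr*, which encodes the p75 neurotrophin receptor, averaged 1535 ± 84.4 in the knockdown and 4171 ± 42.7 in the control, a log2 difference of −1.44. *Acvr2a*, which encodes a receptor for activins and BMPs, had a log2 difference of −0.56.

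**Figure D3:**
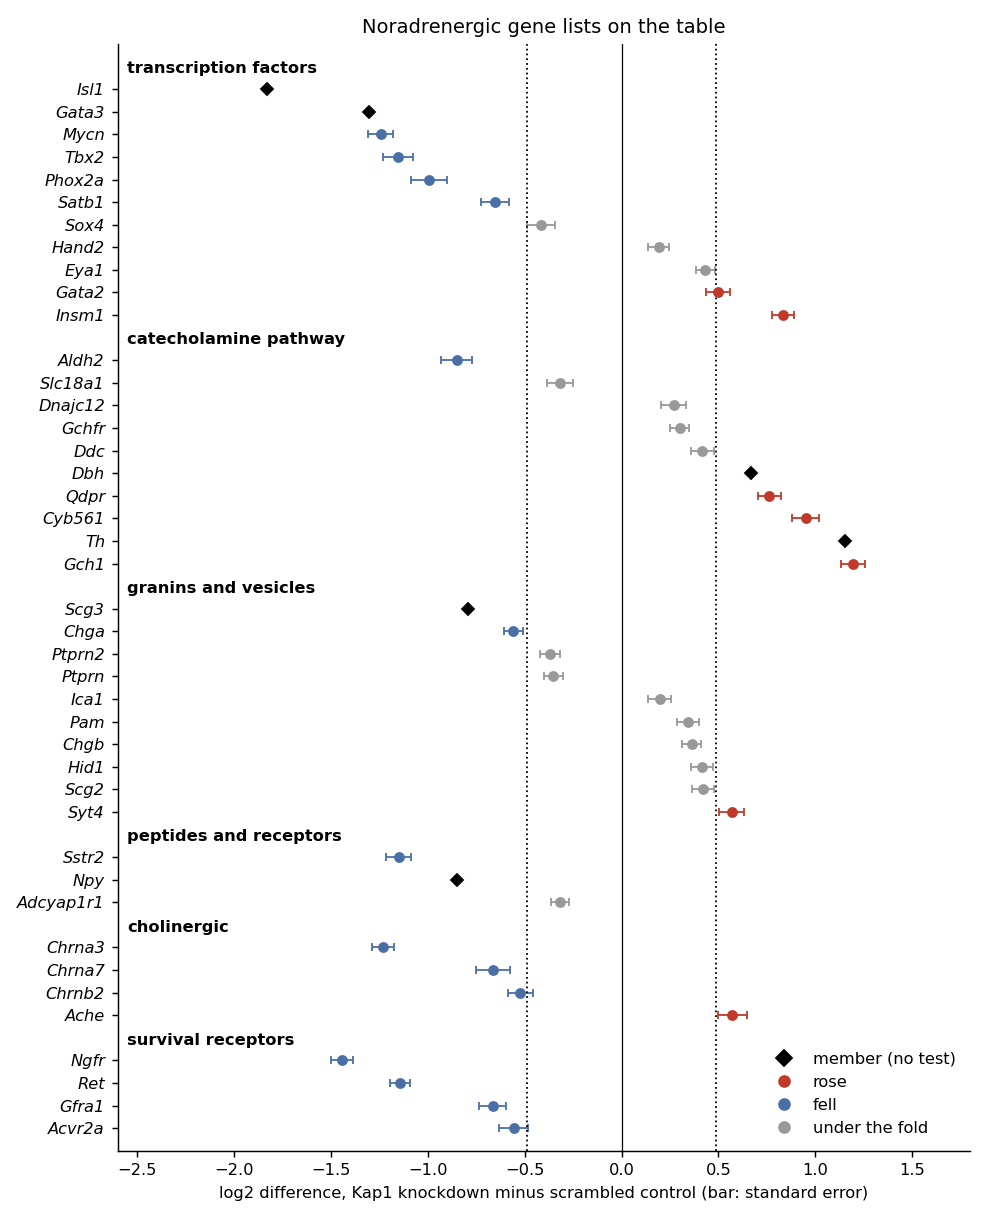
Log2 difference of *Kap1* knockdown minus scrambled control (horizontal axis) for the genes of 6 noradrenergic lists that were on the table, with bars for the standard error of the limma fit and dotted lines at a fold of 1.4. Diamonds are the 6 noradrenergic genes, which carry no test. *Gch1*, *Cyb561* and *Qdpr* lie on the higher side beside *Th* and *Dbh*, while *Aldh2* (−0.85) and *Slc18a1* (−0.32) of the same list lie on the lower side. The 4 survival receptors all lie on the lower side.

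Transcription factors known to act at the *Th*, *Dbh* or *Npy* promoters were counted apart from the lineage factors. Of 30, 10 were on the table, 3 had risen and none had fallen. This was 30.0% of the 10, near the 32.3% of the table's named genes that had changed. *Phox2a*, which fell, was counted with the lineage factors and not here. *Egr1*, which encodes an immediate early zinc finger factor, rose, with 1315 ± 128 in the knockdown and 875.7 ± 41.0 in the control (SD, n = 3 each) and a log2 difference of 0.58. *Crem*, which encodes a factor that binds the cyclic AMP response element printed in the *Th* window, had a log2 difference of 0.51, and *Arnt*, which encodes the partner of hypoxia-inducible factors, one of 0.49. Both lay close to the fold and were under it without control array 3, at 0.42 for *Crem* and 0.44 for *Arnt*. *Crem* was also under it without control array 2 (0.48) and without knockdown array 2 (0.47), and *Arnt* without knockdown array 3 (0.47). *Creb1* and *Rest*, which encodes a repressor of neuronal genes, had log2 differences of −0.32 and −0.35, under the fold. *Nr4a2* and *Jun* were also lower, at −0.46 and −0.30, and *Jund*, *Atf4* and *Sp1* higher, at 0.36, 0.21 and 0.15, all under the fold.

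Neuronal markers and markers of other cell types were counted in the same way. Of 17 pan-neuronal markers, 9 were on the table and 4 had fallen, *Prph*, *Ina*, *Snap25* and *Elavl2*, with log2 differences of −0.54, −0.53, −0.50 and −0.49. Without control array 1 the count was 1, and without knockdown array 2 *Elavl2* was under the fold, at −0.47. With all arrays 44.4% of the 9 had changed, where 32.3% of the table's named genes had. *Tubb3* and *Gap43* were higher in the knockdown, with log2 differences of 0.30 and 0.18, under the fold. *Nefh*, *Elavl4* and *Stmn2* were lower, at −0.30, −0.24 and −0.24, also under the fold. The summed intensity of the 9 was 21877 to 22359 in the knockdown and 27609 to 28968 in the control. Of 22 mesenchymal and fibroblast markers, 8 were on the table, and *Fn1* and *Sox9* had fallen, by 0.78 and 1.22 on the log2 scale. *Snai2* and *Pdgfrb* were higher in the knockdown, with log2 differences of 0.41 and 0.38, under the fold. *Wwtr1*, *Snai1*, *Pdgfra* and *Vim* were lower, at −0.41, −0.25, −0.23 and −0.23, also under the fold. The sum of the 8 was 16150 to 16535 in the knockdown and 20968 to 21727 in the control, most of it from *Vim*, which was under the fold (12090 ± 101.1 in the knockdown and 14140 ± 97.4 in the control, SD, n = 3 each).

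Of 12 Schwann cell and glial markers, 3 were on the table. *Erbb3* and *Egr2* rose, with log2 differences of 0.82 and 0.75, and *Pmp22* had a log2 difference of −0.47, under the fold. The changed share was 66.7% of only 3 genes, against 32.3% of the table's named genes. The sum of the 3 was 5926 to 6303 in the knockdown and 7857 to 8242 in the control, most of it from *Pmp22* (5589 ± 157 in the knockdown and 7735 ± 198 in the control, SD, n = 3 each). Of 12 midbrain dopamine neuron markers *Nr4a2* alone was on the table, with 195 to 203 in the knockdown and 250 to 296 in the control and a log2 difference of −0.46, under the fold. It passed the fold without control array 3. The lowest intensity of any transcript cluster on any array was 22, so a value above 0 does not show that a marker was expressed. *Sox10*, *Col1a1*, *Slc6a3* and *Pitx3* were not analysed here. The part of these markers in the differences of the 6 noradrenergic genes was not tested.

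Genes with the most similar profile were found for each of the 6 by the root mean square difference of log2 values, each set against its own control mean, over the 6 arrays. *Serpinf1* and *Lpar6* were closest to *Isl1* (0.0440 and 0.0568), with log2 differences of −1.83 and −1.80. *Tmem176a* and *Dlc1* were closest to *Gata3* (0.0639 and 0.0679). *Ptpn13* and *Ubqln2* were closest to *Th* (0.0348 and 0.0379), with log2 differences of 1.11 and 1.17. *Rnf186* and *Pitpnm2* were closest to *Dbh* (0.0280 and 0.0434), *Bcan* and *Synm* to *Npy* (0.0316 and 0.0487), and *Tafa1* and *Trim21* to *Scg3* (0.0248 and 0.0341). No noradrenergic gene of the lists above was among these 12. With 6 arrays in 2 groups, such likeness rests mostly on a like difference between the groups.

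The 6 genes lie on 5 chromosomes, and *Gata3* and *Dbh*, which differed in direction, share chromosome 2. The next listed genes on either side were taken from the RefSeq gene order, by rising coordinate whatever the strand. *Gata3*, *Scg3*, *Th* and *Isl1* are on the minus strand, so a gene that follows them in this order lies on the side of their start. *Gata3* was followed directly by *4930412O13Rik*, which fell, with a log2 difference of −1.04, beside −1.30 for *Gata3*. *Dbh* was followed directly by *Sardh*, which encodes sarcosine dehydrogenase and fell, with a log2 difference of −0.82 against 0.67 for *Dbh*. *Scg3* was preceded directly by *Lysmd2*, with a log2 difference of −0.41, under the fold. On the other sides the nearest listed genes were *Upf2* (0.49, 25 genes from *Gata3*), *Adamtsl2* (−0.36) and *Hmgcll1* (−0.29). For *Isl1* they were *Itga1*, which encodes an integrin subunit and rose (1.07), and *Parp8* (−0.43). For *Th* they were *Ifitm10* (1.08, 21 genes away), which rose, and *Tspan32* (−0.18, 2 genes away). For *Npy* they were *Ccdc126* (0.23) and *Mpp6* (0.30), on the other side of 0 from *Npy*.

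Among the 10 genes before and the 10 after each of the 6, few were on the table. All 3 listed near *Th* and all 4 near *Dbh* were lower in the knockdown, where *Th* and *Dbh* were higher. All 5 listed near *Scg3* were lower, as *Scg3* was. Near *Isl1* 1 was higher and 3 were lower, near *Gata3* 1 and 1, and near *Npy* 2 and 1. Listed genes of whole chromosomes were also unevenly split. On chromosome 7, 77.1% of 406 other listed genes were lower in the knockdown, while *Th* was higher than 99.75% of them. On chromosome 9, 75.9% of 345 were lower, and on chromosome 13, 62.9% of 202. On chromosomes 2 and 6, 60.0% of 438 and 60.0% of 235 were higher, while *Gata3* and *Npy* were lower. Over all named genes 50.3% were higher. The cause of the uneven split was not tested.

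**Figure D4:**
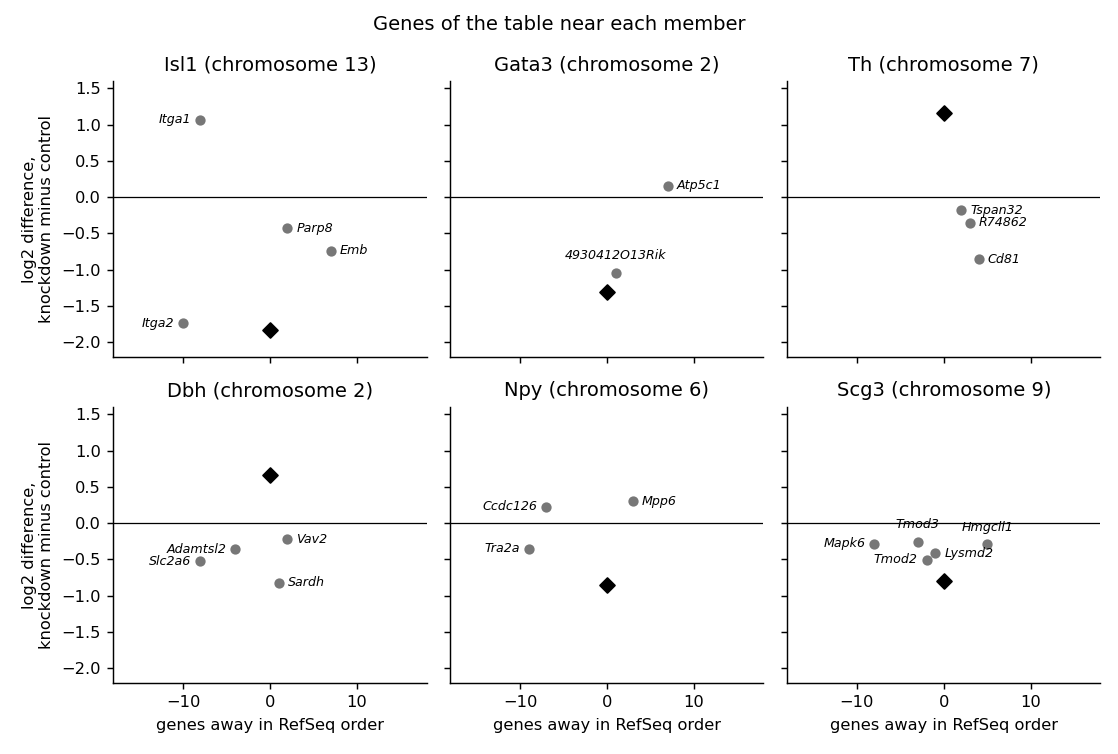
Log2 difference of *Kap1* knockdown minus scrambled control (vertical axes) of each of the 6 noradrenergic genes (black diamond at 0) and of the listed genes among the 10 before and 10 after it in RefSeq order (grey points; horizontal axes in genes). The neighbours of *Th* and *Dbh* all lie below 0 while the diamonds lie above it, and *4930412O13Rik* lies next to *Gata3* at −1.04.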

How the data were processed

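RNA of N2A cells was measured on 6 single-colour arrays, 3 per group by their labels. GeneSpring's Robust Multi-array Average (RMA) was the authors' normalisation. The deposited values are linear intensities in whole numbers, and a further deposited table gives them before rounding, at most 0.5 apart. The genome build of the probe annotation and the rule for listing transcript clusters are not given in the sources used here. The submitters' processing notes name limma.

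Log2 intensities, with no pseudocount, were fitted in R 4.3.3 by limma 3.58.1 (lmFit, eBayes) with group as the single factor and adjusted by Benjamini-Hochberg over 6951 transcript clusters. The fit was tested on simulated data. The thresholds for a changed gene, a fold of 1.4 and an adjusted p of 0.05, are those of the study's methods. Each gene was read through its transcript cluster of highest mean intensity. Gene names come from the platform annotation: 5733 transcript clusters have 1 gene, 384 several and 834 none listed, genes are named and counted from the 5733 alone, and 5726 had a RefSeq entry of GRCm38.p6 under their gene identifier. Motifs were searched on both strands of the 250 bases before each start. Counts were made in Python 3.11.15 with pandas 2.3.3.

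The 6 noradrenergic genes and the 12 lists were chosen with earlier results of these data known. Named genes are the 6, *Trim28*, the changed genes of each list (at most the 6 with the widest difference), the 2 closest profiles of each of the 6 and its nearest listed neighbours. Other named genes were chosen after their values were seen. Some genes are not reported here.

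Alternatives were a fold of 2, an adjusted p of 0.01, the values before rounding, centring on array medians, quantile normalization, a pseudocount of 16, a replicate block, eBayes with its trend and robust options, a filter on dim transcript clusters (mean log2 under 6 in both groups) and leaving out each array. ChIP-seq data of the study were not analysed here.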

Additional observations from a re-analysis of the deposited data

How the results depend on the processing

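The differences of the 6 noradrenergic genes kept their direction in all 78 recomputed values. Because the groups did not overlap for any of the 6, leaving out an array could not reverse a direction. The replicate block, the eBayes options and the dim filter leave each difference as it was. The kept directions thus add no support. The differences lay between −1.87 and −1.74 for *Isl1*, −1.38 and −1.21 for *Gata3*, 1.09 and 1.18 for *Th*, 0.61 and 0.73 for *Dbh*, −0.95 and −0.77 for *Npy*, and −0.83 and −0.77 for *Scg3*. A fold of at least 2 left 505 changed transcript clusters, 153 higher and 352 lower, with 1 of the noradrenergic genes higher (*Th*) and 2 lower (*Isl1* and *Gata3*). It left 8 changed genes on the lists, 1 higher and 7 lower, with 2 sympathoadrenal factors, 2 survival receptors, 1 gene each of the catecholamine, neuropeptide, cholinergic and mesenchymal lists and 0 of the granin, promoter factor, Schwann cell and pan-neuronal lists. With a pseudocount of 16 the changed factors at the *Th*, *Dbh* or *Npy* promoters numbered 1, and with median centring the pan-neuronal markers that had fallen numbered 2. Under quantile normalization *Chrnb2* and *Elavl2* were under the fold (−0.48 and −0.47). Without 1 array the changed transcript clusters numbered 2244 to 2348, the changed listed genes 29 to 31, the changed pan-neuronal markers 1 to 4 and the changed midbrain markers 0 to 1. Same-numbered arrays did not deviate together (correlations of −0.17, −0.13 and 0.04). With so few arrays these correlations cannot decide whether the samples were paired. The replicate block gave 2268 changed transcript clusters and 32 changed listed genes, as without it. In this balanced design the block cannot alter a log2 difference, so the unchanged directions were fixed in advance. Each of the 6 genes has 1 transcript cluster, so no other could be tried. Signal over background was not analysed here.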

Other observations

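Equal values across arrays were not particular to *Npy*. Before rounding, intensities were equal on the 3 knockdown arrays for 39 transcript clusters and on the 3 control arrays for 24, and *Gata3* had the same value on 2 of its control arrays. The cause was not tested. *Dbh* and *Nr4a2* both had rounded intensities of 195, 203 and 202 in the knockdown, while in the control *Dbh* had 119 to 136 and *Nr4a2* 250 to 296.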
